A study of Mus musculus with 4 samples.

Results

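Glycolysis and hypoxia response genes were examined in sorted mouse mammary tumor cells labelled Lsd1 wild-type or Lsd1 knockout. The set held 34 genes chosen by name for their function, that is, glucose transport, the glycolytic enzymes and genes induced by low oxygen, and each was read by its symbol. Earlier results of these data were known when the set and the marker lists were chosen. All 34 had a row among the 23951 gene rows of the deposited table, and 33 of them reached 1 FPKM in at least 2 libraries and were tested. Epas1 did not. FPKM is fragments scaled to transcript length and library size, so levels can be compared between genes. Differences and their standard errors (SE) are given on the log2(FPKM + 1) scale as knockout minus wild-type, and tests are limma's with Benjamini-Hochberg adjustment over 11138 genes and a threshold of 0.05.

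Glycolysis splits glucose into pyruvate in the cytosol and yields ATP without oxygen. Lactate dehydrogenase then turns pyruvate to lactate, or pyruvate enters the mitochondria through pyruvate dehydrogenase. Under low oxygen the HIF alpha subunits escape hydroxylation by the Egln enzymes, are no longer destroyed through the Vhl ubiquitin ligase, and with Arnt bind the hypoxia response element, whose core is ACGTG or GCGTG. Many glycolytic enzymes are HIF targets, and tumors often run glycolysis even with oxygen present. Most steps have several isoenzymes, each from a gene of its own and with a tissue pattern of its own.

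All 4 libraries came from female mice that carry MMTV-PyMT, in which the MMTV promoter drives polyoma middle T antigen in mammary epithelium, and R26Y, a YFP reporter at Rosa26 behind a stop cassette. Every mouse had received Ad-K8-Cre into the ducts, an adenovirus with Cre under the Krt8 promoter of luminal cells, and YFP+ cells were sorted 2 to 3 months afterwards. The wild-type group (Lsd1+/+, 2 libraries) and the knockout group (conditional Lsd1L/L alleles, 2 libraries) thus differ by the Lsd1 alleles. Neither ages nor the number of animals per library are named in the labels, and p-values therefore reflect the spread among these 4 libraries alone. The tissue label of the knockout samples reads Lsd1+/+, against their genotype label, so they are called the libraries labelled knockout.

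The libraries differed in more than the label. Read totals were not used here. The steps between low values put the depth of wild-type libraries 1 and 2 at 1.03 and 0.85, and of the first library labelled knockout at 0.93, of that of the remaining one. Kdm1a, which encodes LSD1, was at 52.5 and 22.9 FPKM in wild-type, against 20.2 and 22.8 FPKM in the pair labelled knockout, a difference that did not pass (limma, adjusted p = 0.338). A value for the whole gene also holds reads from outside a deleted part, so it checks the label only in part. Summed over 11 luminal epithelial markers, the level was 12755 and 2816 FPKM in wild-type against 757 and 777 FPKM, and Epcam and Krt8 were present in every library. The sum over 15 lymphocyte markers was 21.4 and 100.8 FPKM against 2464 and 2371 FPKM. The macrophage and dendritic cell sum (16 genes) was 638 and 15349 FPKM against 1562 and 1447 FPKM, so the second wild-type library stood apart from the other 3. Neutrophil markers (8 genes) summed to 277 and 556 FPKM in wild-type and to 1167 and 1257 FPKM in the pair labelled knockout, endothelial markers (9 genes) to 37.6 and 447 FPKM against 26.02 and 27.2 FPKM. Erythroid markers summed to at most 14.5 FPKM in any library, with Slc4a1 listed at 0 in all 4.

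**Figure D1:**
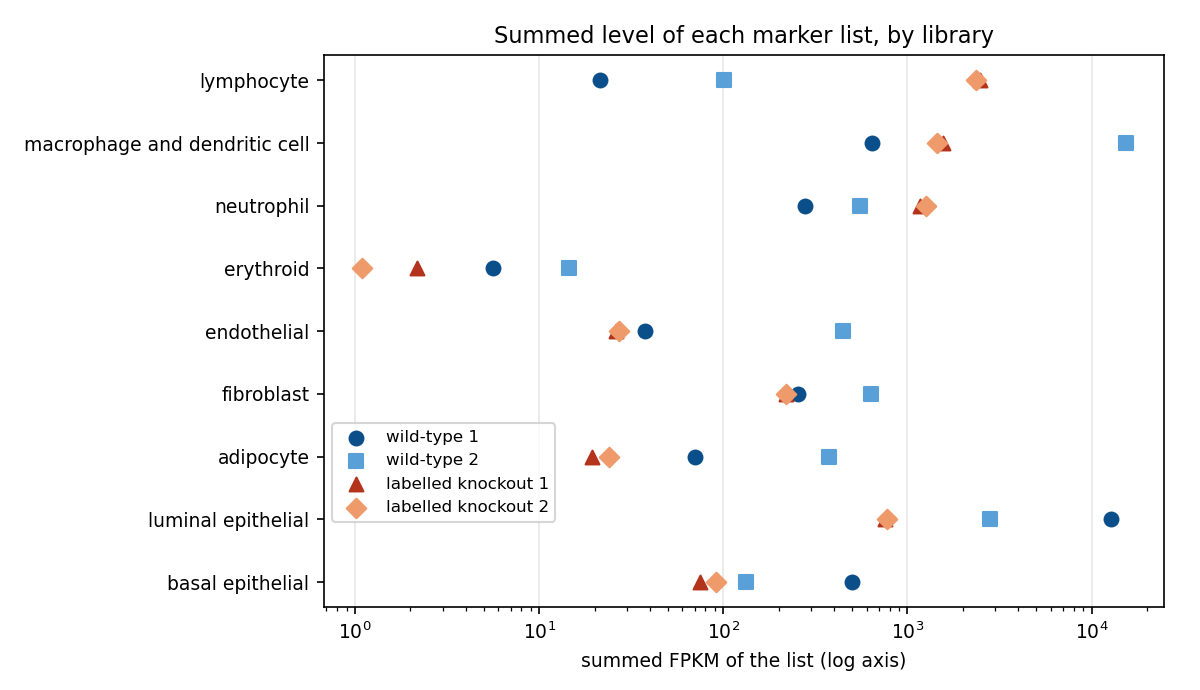
Summed FPKM (log axis) of each list of cell type markers, with 1 point per library. The libraries labelled knockout lie close together, highest for lymphocyte and neutrophil markers. They are lowest for luminal, basal, endothelial, fibroblast, adipocyte and erythroid markers. The second wild-type library is highest for macrophage and dendritic cell markers at 15349 FPKM.

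The glycolysis and hypoxia genes were called in both directions and no more often than the rest of the table. P4ha1, Slc2a3 and Pdk1 rose and Car9 fell, and the remaining 29 of the 33 tested genes did not pass. The 4 calls are 12.1% of those tested, against 16.5% of all genes tested (9.51% higher and 6.99% lower). At an unadjusted p under 0.05 there were 10, against 39.5% of all genes. The median difference was -0.16, against 0.08 over all genes. Groups did not overlap for 8 higher and 12 lower members, together 60.6%, against 71.4% of all genes (39.3% higher and 32.1% lower). For 6 members both libraries labelled knockout lay between the wild-type pair, against 17.5% of all genes. Slc2a3 reached the level for testing only in the pair labelled knockout and Car9 only in wild-type, so these counts are descriptions. In the pair labelled knockout the higher value was a median of 1.09 times the lower over the members, against 1.74 times in wild-type. Over all genes tested these medians were 1.11 and 1.53 times. The part that this likeness plays in the 4 calls was not tested. With any 1 library left out the difference ranged from 2.17 to 2.67 for P4ha1 and from 2.10 to 2.68 for Slc2a3. It ranged from 1.42 to 2.17 for Pdk1 and from -2.31 to -1.55 for Car9. Counts past the threshold moved widely in these fits, for all genes as for the members. With no filter on low values all 4 calls ended (limma, adjusted p from 0.0567 for P4ha1 to 0.0787 for Pdk1). Of all 17257 genes tested in that setting 2 passed. In these bulk libraries fewer cells of a type and less RNA per cell cannot be told apart, and the part that the marker differences above play in any member's difference was not tested.

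**Figure D2:**
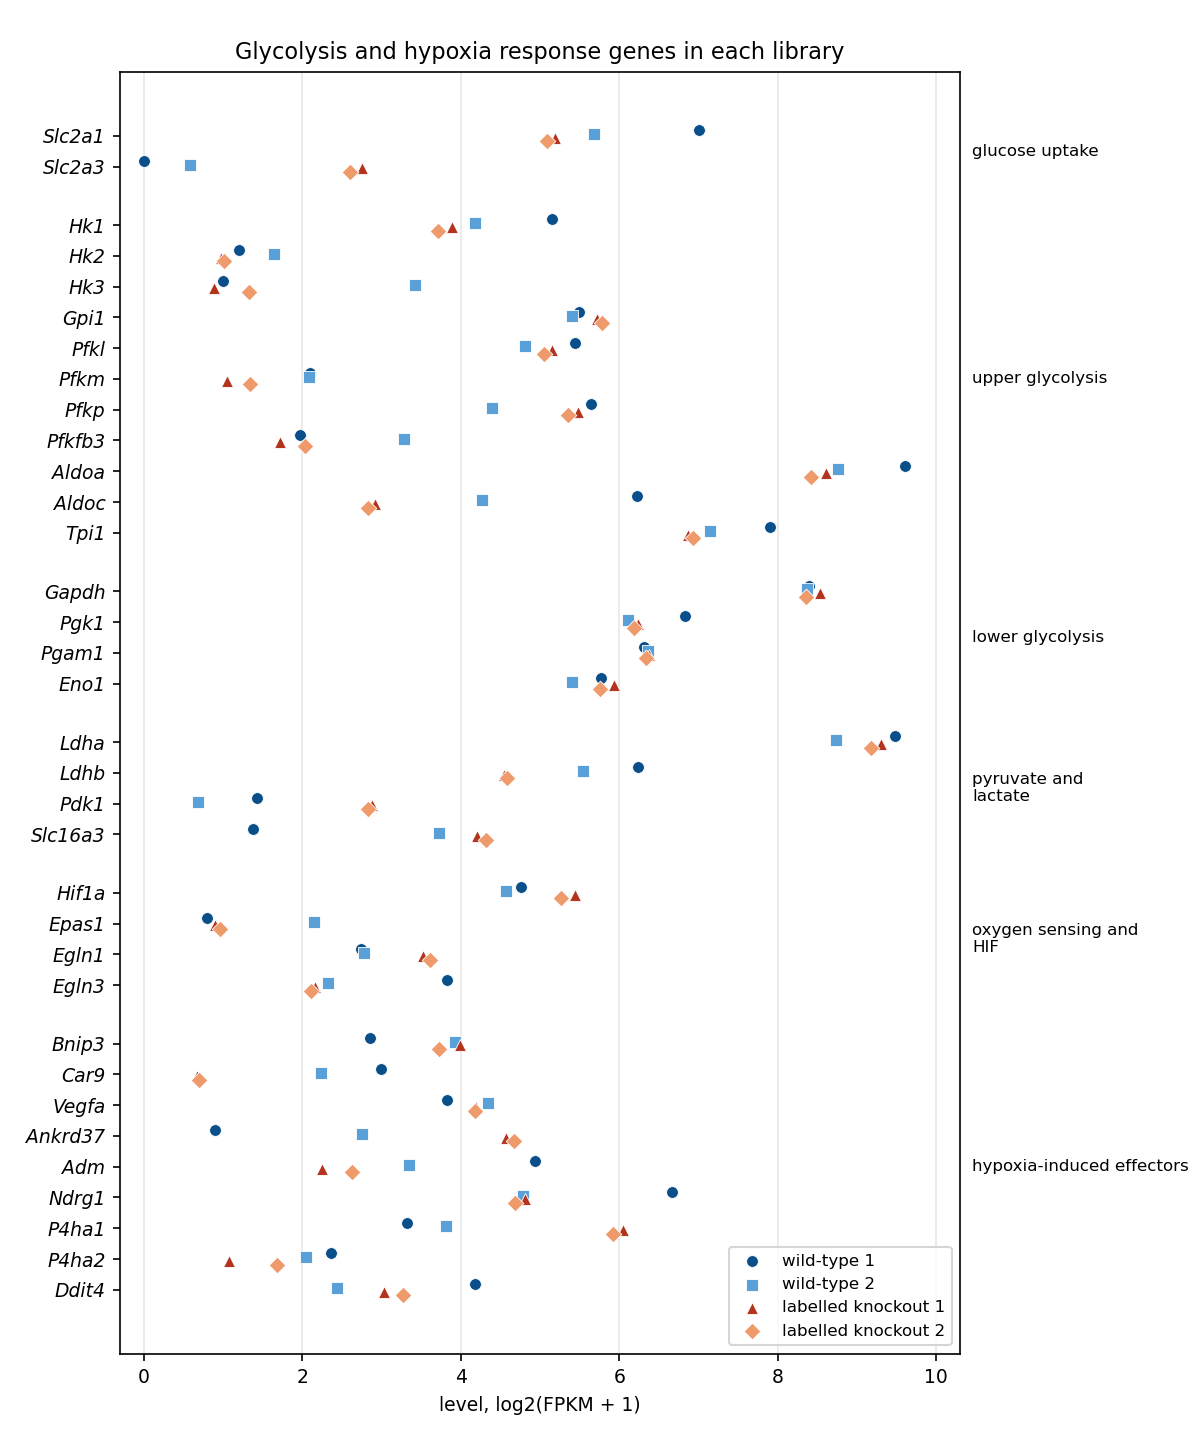
Level of each of the 34 genes in log2(FPKM + 1), grouped by role, with 1 point per library. Ldha, Aldoa and Gapdh are highest, the points labelled knockout nearly coincide, and the wild-type points lie far apart for genes such as Ndrg1 and Aldoc.

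Of the glucose transporters, Slc2a3 rose and Slc2a1 did not pass. Slc2a1 encodes GLUT1, the basal glucose transporter of most dividing cells, and Slc2a3 encodes GLUT3, a high-affinity transporter of neurons and white blood cells. Slc2a1 was at 128 and 50.4 FPKM in wild-type against 35.5 and 33.1 FPKM in the pair labelled knockout. The groups did not overlap, but the difference of -1.21 (SE 0.51) did not pass (limma, adjusted p = 0.166), and it was -0.54 without the first wild-type library. Slc2a3 was listed at 0 in the first wild-type library and was at 0.498 FPKM in the second, against 5.77 and 5.05 FPKM. Slc2a3 thus reached the level for testing only in the pair labelled knockout, and its call is a description. It rose by 2.39 (SE 0.29; limma, adjusted p = 0.0291), and no longer passed at a pseudocount of 0.1 (limma, adjusted p = 0.063). Even so Slc2a1 gave most of the pair's FPKM everywhere. The Slc2a3 share was 0 and 0.978% in wild-type, against 13.99 and 13.2% in the pair labelled knockout. Lymphocyte and neutrophil sums were higher, and luminal, basal, endothelial, fibroblast, adipocyte and erythroid sums lower, in the libraries where Slc2a3 was higher.

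Of the 11 genes of upper glycolysis none passed, against 16.5% of all genes. The difference was negative for 9 of them (median -0.66), and for 5171 of all 11138 genes tested. Hexokinases phosphorylate glucose and trap it in the cell. Hk1, the broadly expressed form, was at 34.5 and 17.1 FPKM in wild-type, against 13.8 and 12.1 FPKM in the pair labelled knockout. Hk2, the inducible form often raised in tumors, was low, at 1.30 and 2.12 FPKM against 0.960 and 1.011 FPKM. Hk3, a form of myeloid cells, was at 1.003 and 9.72 FPKM against 0.843 and 1.51 FPKM, high only in the second wild-type library, where the macrophage and dendritic cell markers were also highest. The Hk1 share of hexokinase FPKM followed it, at 93.7 and 59.1% in wild-type, against 88.4 and 82.8% in the pair labelled knockout, with overlapping groups.

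Glucose-6-phosphate isomerase, Gpi1, was at 43.9 and 41.4 FPKM in wild-type, against 51.7 and 53.9 FPKM in the pair labelled knockout. This was the only gene of upper glycolysis with both libraries labelled knockout above wild-type (difference 0.30, SE 0.17; limma, adjusted p = 0.264). Phosphofructokinase commits sugar to glycolysis and has a liver-type (Pfkl), a muscle-type (Pfkm) and a platelet-type (Pfkp) gene. Pfkl was at 42.5 and 27.2 FPKM against 34.6 and 32.2 FPKM, and Pfkp at 48.9 and 20.1 FPKM against 43.5 and 39.8 FPKM. For both, the libraries labelled knockout lay between the wild-type libraries. Pfkm was low, at 3.28 and 3.24 FPKM against 1.07 and 1.54 FPKM, with no overlap (difference -0.89, SE 0.23; limma, adjusted p = 0.0711). Pfkfb3, which makes the sugar phosphate that activates phosphofructokinase, was at 2.94 and 8.73 FPKM against 2.31 and 3.10 FPKM, highest in the second wild-type library.

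Aldolase cleaves the phosphorylated sugar into the trioses that Tpi1 interconverts. Aldoa, the muscle and general form, was at 777 and 434 FPKM in wild-type against 390.4 and 343 FPKM in the pair labelled knockout (difference -0.66, SE 0.33). Tpi1 showed the same order, at 238 and 141 FPKM against 116.0 and 121 FPKM (difference -0.62, SE 0.31). Aldoc, the form best known from brain, was at 73.7 and 18.3 FPKM against 6.56 and 6.09 FPKM. Groups did not overlap for these 3 genes, and none passed (limma, adjusted p = 0.222, 0.217 and 0.0971 for Aldoa, Tpi1 and Aldoc). The Aldoc difference of -2.38 (SE 0.72) was the most negative among the 33 tested genes and moved to -1.40 without the first wild-type library. Aldoc gave 8.66 and 4.06% of aldolase FPKM in wild-type, against 1.65 and 1.75% in the pair labelled knockout. The luminal and basal marker sums were highest in the first wild-type library, where Aldoa, Aldoc, Tpi1, Hk1 and Slc2a1 were highest too.

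The 4 genes of lower glycolysis differed little, with a median absolute difference of 0.16. Gapdh, the dehydrogenase that passes electrons to NAD, was at 335 and 328 FPKM in wild-type, against 371 and 326 FPKM in the pair labelled knockout. Pgam1, phosphoglycerate mutase, was at 78.4 and 81.2 FPKM against 81.9 and 80.0 FPKM, a difference of 0.02 (SE 0.16). Pgk1, which makes the first ATP of the pathway, was at 113 and 68.4 FPKM against 74.7 and 72.0 FPKM, and Eno1, enolase, at 53.4 and 41.2 FPKM against 60.1 and 53.3 FPKM. Groups overlapped for all 4, and none passed (limma, adjusted p from 0.420 for Eno1 to 0.938 for Pgam1). The directions for Gapdh and Pgam1 flipped with median centring, to -0.025 and -0.074. Gapdh ranged from 326 to 371 FPKM and Pgam1 from 78.4 to 81.9 FPKM, across libraries whose luminal marker sum ranged from 757 to 12755 FPKM.

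Several of these levels are uncertain because near-identical copies can share reads. Among GENCODE M21 transcripts, 73 other genes matched Gapdh over at least 500 bases at 95% identity or more. Likewise 4 matched Bnip3, 2 each matched Ldha and Pgk1, and 1 each matched Ldhb, Gpi1 and Pgam1. The 1 match of Pfkp, over 748 bases, was Pitrm1, whose exons overlap it on the opposite strand. Pitrm1 was at 7.74 and 5.67 FPKM in wild-type, against 12.2 and 10.06 FPKM in the pair labelled knockout. The case that matters most is Eno1: Eno1b, a copy with 99.5% identity over 1736 bases, was listed at 447 and 245 FPKM in wild-type against 303 and 268 FPKM in the pair labelled knockout. Eno1b thus held 83.4 to 89.3% of the FPKM of Eno1 and Eno1b together, and the Eno1 row alone held the smaller part. Their sum was 500.3 and 286 FPKM in wild-type against 363 and 321 FPKM, with the libraries labelled knockout between the wild-type pair.

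Lactate dehydrogenase shares were close within each group. Ldha encodes the subunit that favors lactate formation and is a HIF target, and Ldhb the heart-type subunit that favors its oxidation. Ldha, highest of the 34 genes in the pair labelled knockout and next to Aldoa in both wild-type libraries, was at 710.1 and 425 FPKM in wild-type, against 632 and 576 FPKM in the pair labelled knockout, between the wild-type values. Ldhb was at 74.5 and 45.4 FPKM against 22.4 and 22.9 FPKM, without overlap. Its difference of -1.33 (SE 0.30) did not pass (limma, adjusted p = 0.0611). The Ldhb share of the pair was 9.50 and 9.66% in wild-type, although those libraries differed 1.67-fold in Ldha, and 3.41 and 3.82% in the pair labelled knockout. The share differed by 5.96 points, against an SD of 0.12 points in wild-type and 0.29 points in the pair labelled knockout (n = 2 each). With 2 libraries against 2 an exact two-sided permutation test cannot go below p = 0.333, the value it gave here.

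The promoters of this pair are shown for their hypoxia response element cores. Sequences are from RefSeq on GRCm38.p6, the 170 bases before the start site of the first listed entry for each gene, 5′ to 3′, with ACGTG or GCGTG on either strand (CACGT or CACGC on the other) in capitals. Ldha lies at chr7:46845634-46845803 (plus strand) and Ldhb at chr6:142507958-142508127 (minus strand).
Ldha: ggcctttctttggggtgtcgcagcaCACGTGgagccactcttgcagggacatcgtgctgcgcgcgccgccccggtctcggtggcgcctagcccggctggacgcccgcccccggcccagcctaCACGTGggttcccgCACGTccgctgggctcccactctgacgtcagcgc
Ldhb: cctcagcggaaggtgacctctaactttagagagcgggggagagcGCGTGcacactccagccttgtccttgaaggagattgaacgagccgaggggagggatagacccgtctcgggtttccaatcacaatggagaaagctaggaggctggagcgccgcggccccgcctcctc
The Ldha window holds 5 matches, of which 4 come from a pair of CACGTG palindromes counted on each strand. CACGTG is the E-box that Myc and other factors also bind. The Ldhb window holds 1. A second RefSeq entry for Ldha also holds 1 in the 250 bases before its start site.

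At the entry to the mitochondria, Pdk1 rose. It encodes a pyruvate dehydrogenase kinase, which shuts pyruvate out of the citric acid cycle and is a known HIF target. Pdk1 was at 1.70 and 0.604 FPKM in wild-type, against 6.33 and 6.12 FPKM in the pair labelled knockout, a 5.41-fold ratio of means and a difference of 1.80 (SE 0.34; limma, adjusted p = 0.0457). Pdk1 no longer passed at a pseudocount of 0.1 (limma, adjusted p = 0.0649), after median centring (limma, adjusted p = 0.0545) and after quantile normalization (limma, adjusted p = 0.0613). Slc16a3, the lactate exporter MCT4, was at 1.61 and 12.2 FPKM in wild-type against 17.4 and 18.9 FPKM. It was high in all libraries except the first wild-type library, and its difference of 1.71 (SE 0.86) did not pass (limma, adjusted p = 0.225); without that library it was 0.54. Its low library is also the one with the least lymphocyte, macrophage and neutrophil markers.

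The oxygen-sensing genes gave no call. Hif1a, the broadly expressed HIF alpha subunit, was at 26.2 and 22.7 FPKM in wild-type, against 42.4 and 37.3 FPKM in the pair labelled knockout (difference 0.68, SE 0.20; limma, adjusted p = 0.0881). Epas1, which encodes HIF-2 alpha and is known from endothelium and macrophages, was at 0.741 and 3.43 FPKM against 0.868 and 0.949 FPKM. Its high library is the second wild-type library, where endothelial and macrophage markers were highest. Hif1a gave 86.9 to 97.99% of the FPKM of the 2 subunits in every library. HIF activity is set mainly by protein stability, which these RNA levels do not measure.

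Egln1 and Egln3 encode HIF prolyl hydroxylases, and Egln3 is itself strongly induced by HIF. Egln1 was at 5.68 and 5.88 FPKM in wild-type, against 10.51 and 11.2 FPKM in the pair labelled knockout, without overlap (difference 0.80, SE 0.20; limma, adjusted p = 0.0703). Egln3 went the other way, at 13.2 and 4.003 FPKM against 3.48 and 3.33 FPKM (difference -0.93, SE 0.58; limma, adjusted p = 0.297). Of these 2 genes alone, the Egln1 share was 30.1 and 59.5% in wild-type, against 75.1 and 77.1% in the pair labelled knockout. The groups did not overlap, but the wild-type libraries differed more from each other than the second did from the libraries labelled knockout. Egln2, the other HIF prolyl hydroxylase and no member of the set, was above both in every library, at 16.6 and 14.9 FPKM against 19.7 and 20.6 FPKM, and did not pass (limma, adjusted p = 0.264). Of all 3 genes the Egln1 share was 16.01 and 23.7% in wild-type, against 31.2 and 31.8% in the pair labelled knockout.

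**Figure D3:**
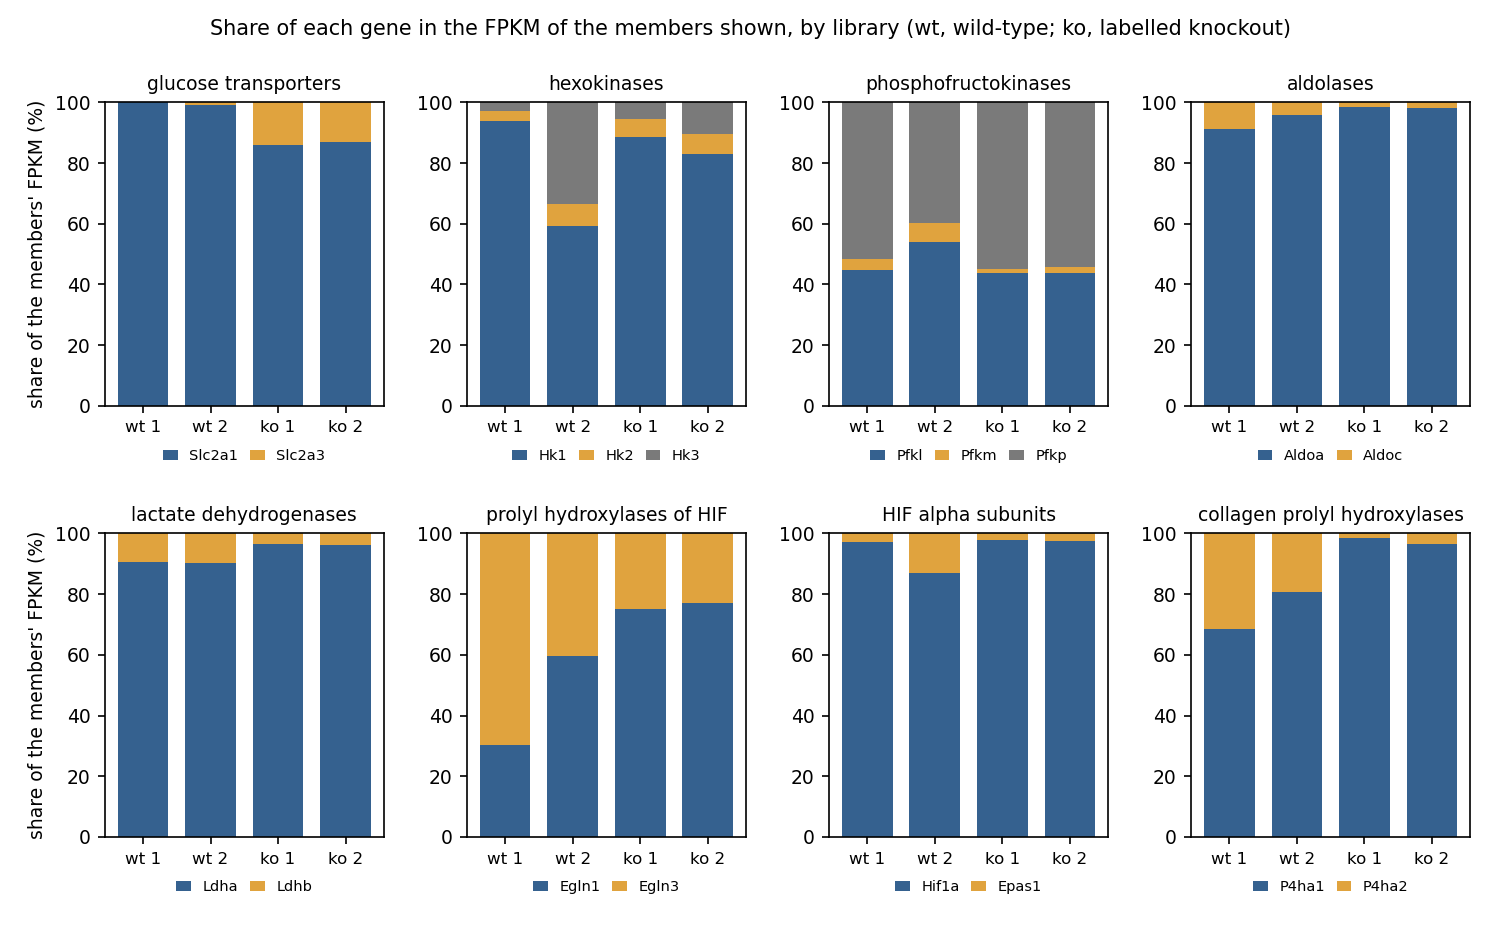
Share of each gene in the summed FPKM of the members shown in its panel (%; Egln2 and other relatives outside the 34 genes are not counted), with 1 bar per library (wt, wild-type; ko, labelled knockout). Shares of the groups do not overlap in any panel except the hexokinases. For Ldhb they are 9.50 and 9.66% against 3.41 and 3.82%, whereas the Hk3 share is high in the second wild-type library only.

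Among the 9 hypoxia-induced effectors, P4ha1 rose and Car9 fell. P4ha1 and P4ha2 encode catalytic subunits of the collagen prolyl 4-hydroxylases, which stabilize the collagen triple helix, and both are known HIF targets. P4ha1 was at 8.98 and 13.0 FPKM in wild-type, against 65.1 and 59.8 FPKM in the pair labelled knockout, a 5.67-fold ratio of means. The difference was 2.42 (SE 0.25; limma, adjusted p = 0.0252), and it stayed between 2.17 and 2.67 with any 1 library left out. P4ha2 had the opposite order, at 4.13 and 3.12 FPKM against 1.11 and 2.20 FPKM (difference -0.82, SE 0.32; limma, adjusted p = 0.146). P4ha2 thus gave 31.5 and 19.3% of the pair's FPKM in wild-type, against 1.68 and 3.55% in the pair labelled knockout. Fibroblast markers, a class of collagen-making cells, summed to 255 and 631 FPKM in wild-type, against 220.4 and 217.7 FPKM in the pair labelled knockout. Lymphocyte and neutrophil sums were higher, and luminal, basal, endothelial, fibroblast, adipocyte and erythroid sums lower, in the pair where P4ha1 was higher.

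Car9 encodes a membrane carbonic anhydrase that offsets acid from glycolysis and is among the most used hypoxia markers in tumors. It was at 6.97 and 3.72 FPKM in wild-type, against 0.596 and 0.619 FPKM in the pair labelled knockout, a ratio of means of 8.80-fold. Car9 thus reached the level for testing only in wild-type, and its call is a description. It fell by 1.93 (SE 0.34; limma, adjusted p = 0.0409). The filter at 5 FPKM leaves Car9 out. In the same libraries the luminal sum was lower, as were the basal, endothelial, fibroblast, adipocyte and erythroid sums.

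Promoters of the called genes P4ha1, Pdk1 and Car9, and of the paralog P4ha2, are printed with their hypoxia cores marked. Slc2a3, Ndrg1 and Epas1 had no entry in the RefSeq table used here. For P4ha1 at chr10:59323126-59323295 (plus strand), P4ha2 at chr11:54100754-54100923 (plus strand) and Pdk1 at chr2:71873054-71873223 (plus strand) the window is 170 bases. For Car9 it is the last 30 bases before the start site, at chr4:43506996-43507025 (plus strand). The Car9 stretch lies upstream of the RefSeq start but overlaps an annotated Car9 exon of GENCODE M21. Capitals again mark the core on either strand.
P4ha1: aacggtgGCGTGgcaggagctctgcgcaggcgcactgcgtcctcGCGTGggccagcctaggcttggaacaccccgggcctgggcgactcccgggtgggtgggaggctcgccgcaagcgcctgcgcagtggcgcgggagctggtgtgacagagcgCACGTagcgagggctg
P4ha2: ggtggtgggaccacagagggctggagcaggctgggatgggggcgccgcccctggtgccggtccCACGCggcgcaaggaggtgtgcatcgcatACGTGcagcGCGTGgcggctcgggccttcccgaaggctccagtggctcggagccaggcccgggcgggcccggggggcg
Pdk1: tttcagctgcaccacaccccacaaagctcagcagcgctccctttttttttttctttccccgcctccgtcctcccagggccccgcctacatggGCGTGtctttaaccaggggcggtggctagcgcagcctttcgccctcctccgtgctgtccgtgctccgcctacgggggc
Car9: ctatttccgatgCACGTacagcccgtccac
P4ha1 and P4ha2 hold 3 matches each, Pdk1 and Car9 1 each, and a second Pdk1 entry holds 0. Across the 31 members with a RefSeq promoter, 29 held at least 1 match in the 250 bases before a start site (93.5%), against 61.8% of the 8340 tested genes with an entry and 41.5% of all 27025 genes with one. Genes called higher and lower over the whole table held it in 59.6% and 59.1% of cases, and tested genes that were not called in 62.3%. The members are well-known hypoxia genes, so their share describes the set and bears on no difference between libraries.

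The other effectors did not pass. Ankrd37, an ankyrin repeat protein strongly induced by HIF, was at 0.866 and 5.75 FPKM in wild-type, against 22.7 and 24.5 FPKM in the pair labelled knockout. Its difference of 2.79 (SE 0.70) was the largest positive one among the 33 tested genes but did not pass (limma, adjusted p = 0.0693); the wild-type libraries differed 6.64-fold. In GENCODE M21, 22.7% of its exonic bases overlap exons of Lrp2bp on the opposite strand. Lrp2bp was listed at no more than 0.0284 FPKM in any library. Another 3.70% overlap exons of Ufsp2, also on the opposite strand, which was at 24.4 and 25.8 FPKM in wild-type against 13.2 and 11.9 FPKM. Adm, the vasodilator peptide adrenomedullin, was at 29.6 and 9.16 FPKM in wild-type against 3.73 and 5.18 FPKM (difference -1.71, SE 0.62; limma, adjusted p = 0.131). Groups did not overlap for either gene.

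Ndrg1, a stress-response gene of epithelial cells, was at 100.5 and 26.5 FPKM in wild-type against 27.002 and 24.7 FPKM, so only the first wild-type library stood out. Without that library the Ndrg1 difference was -0.035 in place of -0.98. Ddit4, an inhibitor of mTOR signalling, was at 17.1 and 4.44 FPKM in wild-type, against 7.17 and 8.67 FPKM in the pair labelled knockout, which lay between. Bnip3, a mitophagy receptor, was at 6.24 and 14.2 FPKM against 14.9 and 12.2 FPKM. Vegfa, the main angiogenic factor, was at 13.2 and 19.4 FPKM against 17.3 and 17.2 FPKM. Groups overlapped for Ndrg1, Ddit4, Bnip3 and Vegfa, and the sign of the Ddit4, Bnip3 and Vegfa differences flipped without the first wild-type library.

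**Figure D4:**
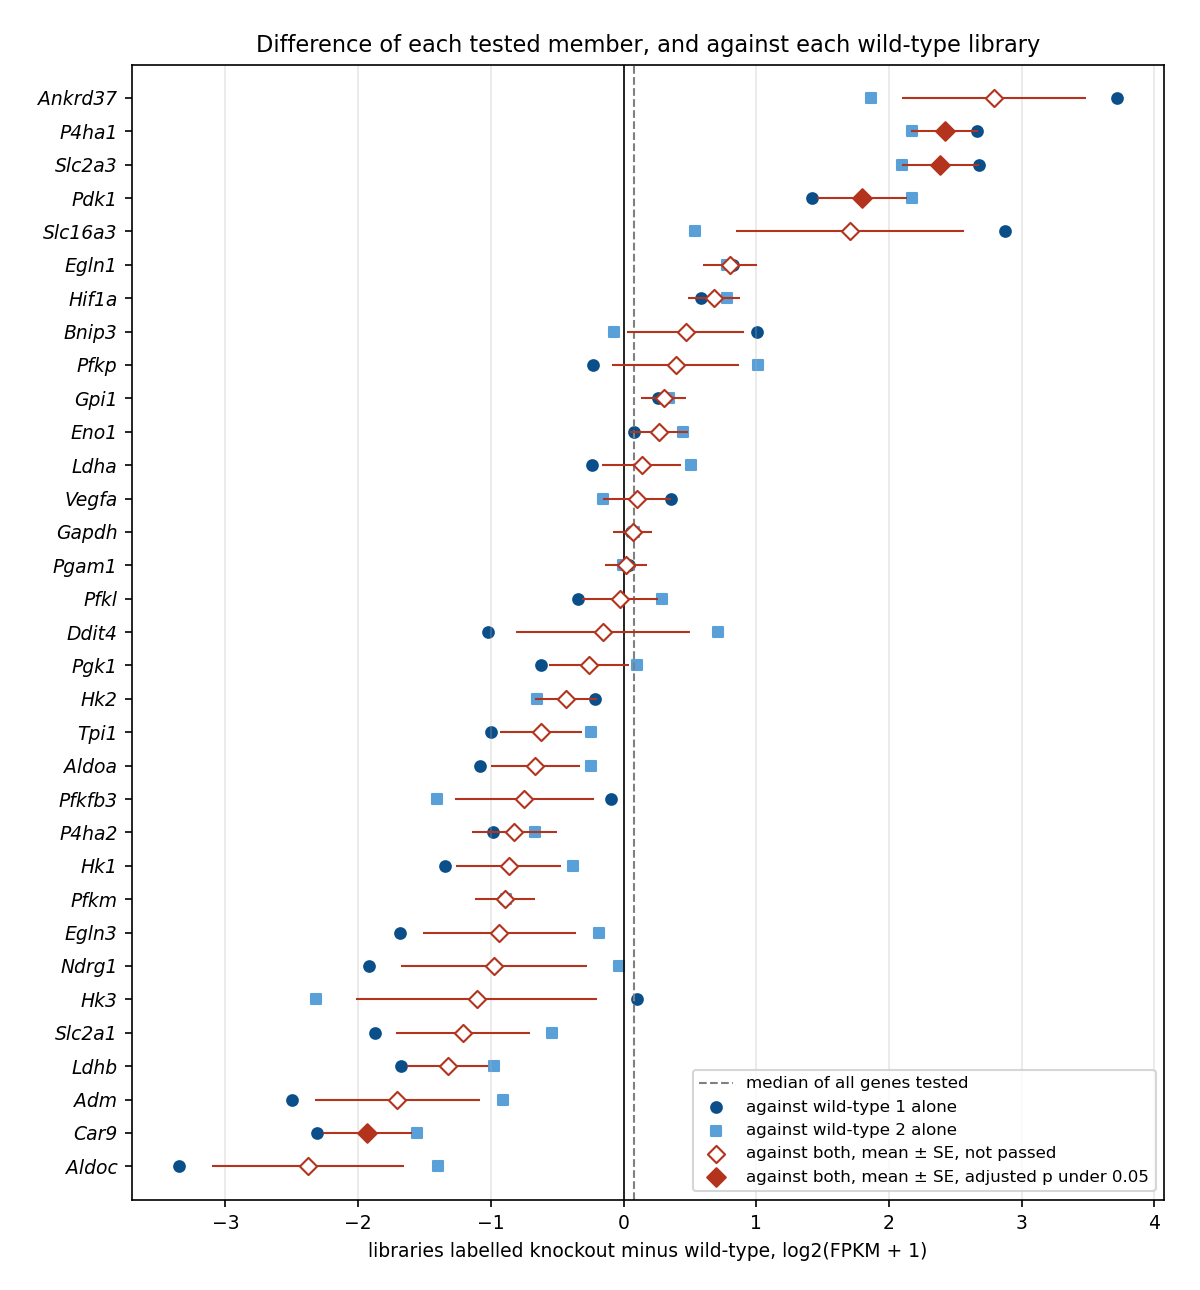
Difference of each of the 33 tested genes, libraries labelled knockout minus wild-type on the log2(FPKM + 1) scale, as mean with SE (diamonds, filled where the adjusted p was under 0.05) and against each wild-type library alone. P4ha1, Slc2a3 and Pdk1 lie between 1.42 and 2.68 and Car9 between -2.31 and -1.55 against either wild-type library, whereas Ddit4 and Hk3 change sign between them.

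The library nearest to the libraries labelled knockout differed by gene. For 23 of the 33 tested genes, among them all 9 effectors and both glucose transporters, the second wild-type library was the nearer on the log2 scale, against 57.4% of all genes tested. The first wild-type library was above the second for 22 of the 33, and for 5770 of all 11138 genes tested. Summed over the 34 genes the FPKM was 2996 and 1910.5 in wild-type, against 2186 and 2017 in the pair labelled knockout, that is, 0.745 and 0.425% of each library's FPKM total against 0.544 and 0.500%. The sum in the pair labelled knockout was thus between the wild-type libraries.

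Related pathways were counted from the same test. Of 114 further genes with a row in 7 lists, 88 were tested, and 7 rose and 4 fell (12.5%, against 16.5% of all genes). Among 9 tested glycolysis relatives, Slc16a1, the lactate transporter MCT1, rose from 4.66 and 4.68 to 11.6 and 11.3 FPKM, and Tigar, a phosphatase that diverts sugar from glycolysis, from 1.13 and 0.740 to 5.003 and 6.17 FPKM; 7 did not pass. Pkm, the pyruvate kinase of non-liver cells, was at 403 and 282 FPKM against 258 and 233 FPKM and did not pass.

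Other hypoxia-induced genes were called in both directions. Of 34 tested, 3 rose, 2 fell and 29 did not pass, with a median of -0.15. The calls are 14.7% of those tested, against 16.5% of all genes. Kdm3a, a histone demethylase induced by HIF, rose from 5.87 and 4.69 to 20.7 and 21.8 FPKM (difference 1.83, SE 0.22; limma, adjusted p = 0.0283). The mitochondrial protein gene Higd1a rose from 20.3 and 19.9 to 42.5 and 42.9 FPKM, and Narf from 4.04 and 3.53 to 10.6 and 11.7 FPKM. Angptl4, an inhibitor of lipoprotein lipase, fell by 1.84 (SE 0.18; limma, adjusted p = 0.0243), from 47.4 and 45.6 to 11.9 and 12.6 FPKM. Tgfb3 fell from 17.1 and 13.0 to 3.49 and 4.61 FPKM. The wild-type pair was close for these 5 genes, the higher value at most 1.32 times the lower (Tgfb3). A small spread within groups helps a gene to pass, so this closeness is no separate evidence for the calls.

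Over all genes tested 16.5% were called in limma, and 39.5% had an unadjusted p under 0.05. Whether any of the small lists below departs from these shares was not tested. Of 10 tested oxygen-sensing partners, 2 rose and 8 did not pass. Cul2, the scaffold of the Vhl ligase, rose by 1.05 (SE 0.18), and Ep300, a HIF coactivator, by 1.08 (SE 0.20). Ep300 was low, at 0.512 and 0.741 FPKM in wild-type against 2.67 and 2.22 FPKM in the pair labelled knockout. It reached the level for testing only in that pair, so its call is a description. In the pentose phosphate pathway, Taldo1, transaldolase, fell from 289 and 321 to 137 and 133 FPKM (difference -1.17, SE 0.15; limma, adjusted p = 0.0297), and 6 of 7 did not pass. Among 10 genes of pyruvate dehydrogenase and pyruvate entry, Pdk2 fell from 10.7 and 6.49 to 2.11 and 2.02 FPKM (difference -1.61, SE 0.31; limma, adjusted p = 0.0465), opposite to Pdk1, and 9 did not pass. In the citric acid cycle 0 of 16 genes passed in limma (1 at an unadjusted p under 0.05), with a median of -0.04; Sdhc, a subunit of succinate dehydrogenase, had the lowest p, at 50.3 and 46.8 FPKM against 28.6 and 23.8 FPKM, followed by Mdh2 (difference 0.23) and Suclg1 (difference -0.30). In gluconeogenesis 0 of 3 tested genes passed in limma (0 at an unadjusted p under 0.05), and Pcx, G6pc3 and Pck2 had differences of -0.71, -0.43 and -0.64. Lymphocyte and neutrophil sums were higher, and luminal, basal, endothelial, fibroblast, adipocyte and erythroid sums lower, in the libraries in which these genes rose or fell. The part these play was not tested.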

How the data were processed

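Sorted mouse mammary tumor cells were profiled by RNA-seq, with libraries from a low-input Clontech SMARTer kit, per the labels' protocols, in 2 wild-type libraries and 2 labelled knockout. The authors deposited FPKM per gene and library; the header names no unit, which was read from the values. The build was mm9, per the submitters' processing notes; for the aligner, counter and annotation a name is not given in the sources used here. Of 24043 rows, 92 spike-in rows (all at 0) were left out. Read totals are unknown, so no count model was fitted.

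Groups were taken from sample titles. Each gene at or above 1 FPKM in 2 or more libraries entered a fit by limma 3.58.1 (R 4.3.3), as log2(FPKM + 1), its prior trended and robust with genotype as the sole term. A fold on this scale understates changes of low genes. Simulated data served to test it. Relative depth was the scale at which ratios of values under 0.1 FPKM were ratios of whole numbers up to 6, within 0.2%, for 50.4 to 60.4% of genes, against 0 to 0.548% off that scale. Copies were found with BLAST 2.17.0. Alternatives were the pseudocount, the filter, 3 scalings, the replicate block and leaving out each library. Named genes were all members, Kdm1a, called genes of each related list (or up to 3 of lowest p) and markers. Pkm, Egln2, Eno1b, Lrp2bp, Ufsp2 and Pitrm1 were named after their values were seen. Members and lists were chosen with earlier results of these data known. Of the list genes, Tigar and Adgre1 were matched through older symbols, and Trac, Ly6g and Hbb-b2 matched no row. Between 0 and 4 rows per library were at 0 there alone with 20 FPKM or more elsewhere, so a 0 can be a failed estimate.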

Additional observations from a re-analysis of the deposited data

How the results depend on the processing

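Counts of called genes varied widely between some of the settings. Of all genes 1837 passed; with no filter on low values 2 passed, with the replicate block 501, and with 1 library left out between 0 and 7912. Of the members 4 passed, against 2 with a pseudocount of 0.1, 0 with no filter (limma; 10 at an unadjusted p under 0.05), 2 with the replicate block (P4ha1 and Slc2a3), and 0 to 26 with 1 library left out. Of the other pathway genes 11 passed, against 0 with no filter (31 at an unadjusted p under 0.05), 0 with the replicate block (26 at an unadjusted p under 0.05) and 0 to 57 with 1 library left out. Of the marker genes 19 passed, against 0 with no filter (37 at an unadjusted p under 0.05) and 0 to 68 with 1 library left out. A fit without 1 library takes the lone library to vary like the other group. The cause of the other changes was not tested.

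Same-numbered libraries did not deviate together (r = -0.06 across genes between deviations from the group means) and are not stated to be paired, so the block result is given only here.

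Scaling turned the sign of Pfkl to 0.051 (common total), Gapdh to -0.025 and Pgam1 to -0.074 (median centring), and Pgam1 to -0.0025 and Vegfa to -0.041 (quantile normalization). With 1 library left out the difference ranged from -2.32 to 0.10 for Hk3, -0.34 to 0.29 for Pfkl, -0.23 to 1.02 for Pfkp, -0.024 to 0.16 for Gapdh, -0.62 to 0.10 for Pgk1, -0.0051 to 0.045 for Pgam1, -0.23 to 0.51 for Ldha, -0.069 to 1.004 for Bnip3, -0.16 to 0.36 for Vegfa and -1.02 to 0.71 for Ddit4. The other 23 tested members kept their direction in all settings run. The Hk1 share of hexokinases, 9.19 points higher in the pair labelled knockout, ranged from -8.12 to 26.5 points. The Ldha share ranged from 5.76 to 6.17 points, the P4ha1 share from 16.7 to 28.9 points and the Egln1 share from 16.6 to 45.9 points.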
